A study of Rattus norvegicus with 60 samples.

Results

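DNA methylation peaks that a single animal held in both of its tissues, and that no other animal of the same age held in either tissue, were described in the hypothalamus and white blood cells (WBC) of P22 rats. Peaks of 24 samples, 12 hypothalami and the 12 WBC samples of the same animals, on chr1 to chr20 were joined at an overlap of at least 1 bp, which gave 512217 regions. The members were selected on peak presence alone: a region was taken if exactly 2 of the 24 samples held a peak in it and these were the hypothalamus and WBC of one animal. This held for 1286 regions, which are called own-pair regions here. A further 11459 regions held a peak in the hypothalamus of one animal and the WBC of another, and these mismatched pairs served as the comparison. Own-pair regions made up 10.1% of all 12745 regions with a peak in exactly 1 hypothalamus and 1 WBC sample. These came from 12 own pairs and 132 mismatched pairs, and the totals of the mismatched pairs gave an expected 1019 own-pair regions.

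The P22 samples came from female Sprague-Dawley rats, 4 per prenatal group. Dams of the prenatal alcohol exposure (PAE) group received a liquid ethanol diet through gestation. Dams of the pair-fed (PF) group received a liquid control diet in the amount an alcohol-fed partner had eaten, and control (C) dams had a pelleted control diet without restriction. Animals are named by group and replicate number, from 13 to 16 in each group, and each came from a different litter. Hypothalami were dissected whole, and WBC were mononuclear cells isolated from trunk blood, so both are mixtures of cell types. Hypothalami of 36 younger females of the same groups, 12 on each of P1, P8, and P15, were not used to choose the regions and served as an outside measure. All coordinates are those of Rn6.

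In mammals, 5-methylcytosine is found mostly at CpG sites, and methylated DNA immunoprecipitation (meDIP-seq) enriches fragments that carry it, so that a peak marks a stretch with more methylated fragments than its surroundings. Most methylation differences between brain and blood follow cell type and are shared by all individuals. Some differences between individuals are instead found in many tissues of the same body, either because DNA sequence variants change or remove CpG sites, or because the methylation state was set in the early embryo before the tissues separated. Such loci are of interest where blood stands in for a tissue that cannot be sampled. Sprague-Dawley rats are outbred, so littermates share part of their variants. In tissue DNA, methylation of a part of the cells and weaker enrichment of all cells cannot be told apart in the height of a peak.

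Depth varied more among WBC than among hypothalamus samples. Hypothalamus samples had between 16498609 and 18030851 fragments and between 143069 and 172209 peaks on chr1 to chr20. WBC samples had fewer fragments, between 11910384 and 15467157, but more peaks, between 163718 and 210295. The deposited lists hold called peaks only, so a region without a peak in a sample may still have been methylated below the calling threshold.

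A total of 3 libraries stood apart from the others. The WBC sample of C 14 had 1631 peaks on chrY and its unplaced contigs, where the other 11 WBC samples had between 47 and 146, and 2176 peaks on chrX, where the others had between 3815 and 5269. This went against its female label. The hypothalamus of C 14 did not share the pattern, with 71 chrY and 3535 chrX peaks. The hypothalamus of PAE 16 had 201 chrY and 2647 chrX peaks, against 34 to 88 and 2948 to 3535 in the other 11 P22 hypothalami. Of the younger hypothalami, PF 1 and PAE 3 at P1 had more chrY peaks than PAE 16 at P22, 249 and 206. They were followed by PF 3 at P1 with 194. Their chrX peaks, 6247 and 5862, lay within the range of the P1 hypothalami, from 5113 (PAE 1) to 7488 (PF 3). The study left out 1 PF WBC sample, not named in its main text, that clustered with the hypothalami and was taken as possibly mislabelled. Here all were kept, and the WBC sample of PF 15 shared far more regions with hypothalami than any other WBC sample did. It held 2375 of the mismatched regions, where the other WBC samples held between 461 and 984. The tests, the clustering, and the differences in height are therefore given with and without these 3 animals. All other values are for the 12 animals together unless stated. Own pairs follow the labels, and whether both samples of PF 15, C 14, and PAE 16 came from the same animal was not tested, so their own-pair numbers and ratios may not be those of 2 tissues of one animal.

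Animals held between 36 and 180 own-pair regions. The numbers were 66 in C 13, 122 in C 14, 101 in C 15, and 100 in C 16. The PF animals spanned the whole range, with 135 in PF 13, 97 in PF 14, 180 in PF 15, and 36 in PF 16. PAE animals were closer together, with 111 in PAE 13, 95 in PAE 14, 132 in PAE 15, and 111 in PAE 16. The highest and the lowest number thus both fell in the PF group, and the highest belonged to the animal whose WBC sample resembled the hypothalami.

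Own pairs shared more regions than mismatched pairs did. The mean was 107 regions in the 12 own pairs (SD = 35.7) and 86.8 in the 132 mismatched pairs (SD = 43.9), a ratio of 1.23. An exact permutation of the WBC samples within prenatal groups, one-sided and over every possible pairing, gave p = 0.00123 (adjusted p = 0.00738 over 6 tests), where the smallest possible p was 7.23e-05. Without PF 15, C 14, and PAE 16, the 9 remaining animals held 1688 own-pair regions, now with a peak in exactly 2 of their 18 samples, and the ratio was 1.27 (exact permutation p = 0.00463, 216 pairings). Most of the own-pair regions were nevertheless matched in number by mismatched pairs. The totals of the mismatched pairs of each sample gave an expected 1019 own-pair regions, 267 fewer than were found.

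The excess was present in most animals and differed in size among them. Relative to the number expected from the totals of the same samples, own pairs averaged 1.27 (SD = 0.182, n = 12), and mismatched pairs ranged from 0.602 to 1.26. The ratio was highest in C 15, at 1.60, followed by PAE 15, at 1.54. PF 14, PF 13, and C 14 followed at 1.33, 1.31, and 1.31. It was 1.29 in both C 13 and PAE 13 and 1.26 in C 16. PAE 16, PAE 14, and PF 15 were lower, at 1.16, 1.12, and 1.09. PF 16 was the only animal without an excess, at 0.941. It had the shallowest WBC library and C 13 the next shallowest, and a link to depth was not tested. Without PF 15, C 14, and PAE 16, all 9 remaining animals, PF 16 among them, were above their expected numbers. In 8 of 12 animals, the own pair had the highest ratio among all pairs of its hypothalamus and among all pairs of its WBC sample. C 14 was among these 8. The chrY peak numbers of its hypothalamus and WBC sample were far apart, and whether both came from one animal was not tested. The highest rank of the own pair holds for the ratio and not for the number of regions. The hypothalamus of C 14 shared 122 regions with its own WBC sample and 217 with that of PF 15.

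The excess was also measured within and across sequencing pools. In the 5 own pairs sequenced in the same pool, the ratio to the expected number averaged 1.31, and in the 7 own pairs from different pools it averaged 1.24. Mismatched pairs averaged 1.01 within and 0.995 across pools. In numbers of regions the order was reversed for own pairs and kept for mismatched pairs. Own and mismatched pairs averaged 99.4 and 90.4 regions within pools, and 112.7 and 85.1 across pools. As the expected numbers were fitted to the mismatched pairs, their mean over all such pairs is close to 1 by construction. Tissues of 11 animals were extracted in different rounds, and their own pairs averaged 1.27. Only 1 own pair, at 1.26, and 1 mismatched pair, at 0.857, shared a round, so extraction rounds could not be compared. All P22 samples were immunoprecipitated in 1 round. Mismatched pairs of the same prenatal group averaged 0.986 and those of different groups 1.00, and the same breeding cohort gave 0.986 and different cohorts 1.01.

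The prenatal groups overlapped in the excess. The mean log2 ratio of own to expected number was 0.44 in C (SD = 0.16), 0.21 in PF (SD = 0.24), and 0.34 in PAE (SD = 0.21), with 4 animals each. Exact two-sided permutation tests gave a log2 difference of -0.10 for PAE vs. C (p = 0.486, adjusted p = 0.486), 0.13 for PAE vs. PF (p = 0.429, adjusted p = 0.486), and -0.23 for PF vs. C (p = 0.286, adjusted p = 0.429). With 4 against 4 animals, the smallest possible p was 0.0286. This value was reached in PF vs. C when both peaks had to be at q under 0.001, with a log2 difference of -0.53, and not under any other setting. The replicate block and the set without PF 15, C 14, and PAE 16 were too small to reach it. Without PF 15, C 14, and PAE 16, the differences were -0.00478, 0.06, and -0.07.

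Own-pair regions had low peaks. In the hypothalamus, the height of their peaks, which is the number of fragments over the highest summit, had a median of 12 (range 7 to 82), and in WBC the median was also 12 (range 6 to 93). The medians over all peaks of a sample were between 16 and 17 in the hypothalamus and between 17 and 19 in WBC. The median length of an own-pair region was 464 bp (range 327 to 1671), the same as in mismatched pairs and within the medians of single peaks in the P22 samples, which were between 442 and 495 bp. Their median fold enrichment over the local background was 3.45 in the hypothalamus and 3.75 in WBC, and in mismatched pairs it was 3.43 and 3.68. Heights chose the regions only through the peak threshold, so they are given as a description.

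Heights differed little between own and mismatched regions of the same sample. The median log2 height in the hypothalamus was on average 0.04 higher in own-pair regions (SD = 0.06 over 12 animals), with 4 animals higher, 8 equal, and 0 lower. In WBC, the mean difference was 0.03 (SD = 0.12), with 5 animals higher, 4 equal, and 3 lower. Across regions, log2 heights in the hypothalamus and WBC were related in own pairs (r = 0.554, 1286 regions) and in mismatched pairs (r = 0.478, 11459 regions). Regions of one animal share its libraries and are not independent replicates. When PF 15, C 14, and PAE 16 were left out, the mean log2 differences in height were 0.02 in both tissues.

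The share of own pairs was higher among stronger peaks. Of the regions whose lower peak had 10 fragments or fewer, 9.50% were own-pair regions (682 of them), and of those whose lower peak exceeded 20 fragments, 13.8% were (38). The ratio of own to mismatched pairs rose in the same order, from 1.16 to 1.76. With both peaks at a -log10 q-value above 3, 586 own-pair regions remained and the ratio was 1.36. At a value above 6, there were 105, and the ratio was 1.99 (one-sided exact permutation p = 0.00246). At a value above 8, there were 36, in 10 of 12 animals, against 132 regions in all mismatched pairs, a ratio of 3.00 (one-sided exact permutation p = 0.00579). In the 9 animals other than PF 15, C 14, and PAE 16, the ratio was 2.14 above 6 (156 own-pair regions) and 3.22 above 8 (56), each with p = 0.00463, the smallest that the exact permutation of 9 animals can give. The last 2 thresholds were chosen after seeing the data.

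At a -log10 q-value above 6, 10 of 12 animals held more own-pair regions than the mean of the mismatched pairs of their samples. PF 14 held the most, 16 against a mean of 4.00 in its mismatched pairs, followed by PAE 16 with 15 against 6.09 and PAE 13 with 13 against 4.41. C 16 and PF 13 both held 11, against 4.18 and 4.59. PAE 14 had 10 against 5.50, C 15 had 8 against 2.91, and C 14 had 6 against 4.73. C 13 and PAE 15 both had 5, against 3.41 and 2.86. The exceptions were PF 15, with 4 against 7.45, and PF 16, with 1 against 2.50. Relative to the number expected from the totals, PF 15 had 4 against 5.17 and PF 16 had 1 against 0.904, so only PF 15 was below its expected number on this scale. Single mismatched pairs often held as many regions or more. Only in PAE 13 did the own pair exceed every mismatched pair of its hypothalamus, with 13 against at most 12. In PAE 14, the highest mismatched pair of the hypothalamus held 26. Among the pairs of the WBC sample, the own pair was highest in C 16, PF 14, PAE 13, and PAE 16.

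The tallest own-pair region of each animal, ranked by the lower of both heights, is a local example of a peak found in both tissues of one animal. Annotation of Rn6 was not used here, so none is assigned to a gene. In 4 animals, C 14, PF 14, PF 15, and PAE 13, more than 1 region had the same lower height, and the first by position is given. In C 13, chr4:18736628-18736995 had a height of 26 fragments in both tissues, with fold enrichments of 4.84 in the hypothalamus and 6.64 in WBC. No other P22 sample held a peak there, and of the 36 younger hypothalami only PF 2 at P1 did, with 25 fragments. In C 14, chr1:91716254-91716627 had 21 fragments in the hypothalamus and 28 in WBC, and 3 younger hypothalami, but not its littermate C 2, held a peak. In C 15, chr10:105698404-105698782 had 26 and 32 fragments, and 5 younger hypothalami held a peak of between 14 and 37 fragments. Of its 2 littermates, C 5 was among them and C 9 was not. In C 16, chr4:7971716-7972112 had 29 and 36 fragments. It was present in 7 younger hypothalami with heights of 27 to 42, and C 11, the littermate of C 16, had 35. Tall peaks in both tissues follow from how these regions were picked, and a peak in at least 1 younger hypothalamus was found for 87.7% of all own-pair regions, 88.9% of mismatched regions, and 85.2% of all regions.

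PF 14 had the tallest of these regions in the PF group, chr2:59739316-59739740. It had 31 fragments and 6.21-fold enrichment in the hypothalamus and 42 fragments and 6.06-fold enrichment in WBC. A single younger hypothalamus, PAE 8 at P8, held a peak there, with 36 fragments. In PF 13, chr1:190521868-190522254 had 26 fragments in both tissues, and its 4 younger peaks, of 18 to 29 fragments, were all at P8. In PF 15, chr5:47409593-47410039 had 23 fragments in the hypothalamus and 22 in WBC, with 1 younger peak of 16 fragments, which was not in its littermate PF 9. In PF 16, chr13:85901301-85901986 had 22 and 28 fragments and was the longest of the 12 regions, at 686 bp.

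In PAE 13, chr1:101637812-101638207 had 23 fragments in the hypothalamus and 32 in WBC and was the only one of the 12 without a peak in any younger hypothalamus. In PAE 14, chr10:13661697-13662068 had 24 and 22 fragments, and 2 younger hypothalami held a peak. In PAE 15, chr2:128818826-128819224 had 23 and 37 fragments. Of its 5 younger peaks, 2 were those of its littermates, PAE 5 at P8 with 31 fragments and PAE 9 at P15 with 23. The region of PAE 16, chr1:11907541-11907882, was the tallest of all 1286, with 82 fragments in the hypothalamus and 93 in WBC. Its fold enrichments were only 2.50 and 2.07, and the latter was the lowest among the 12 in WBC. As enrichment is height over local background, the background was high there in both tissues, and the tallest region was not the most enriched. The only younger peak there, of 58 fragments, was in C 10 at P15 and not in the littermate PAE 11.

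Own-pair regions were spread over the genome. Each of the 20 chromosomes held between 24 (chr12) and 123 (chr1) of them. The share of own pairs among the regions with 1 hypothalamus and 1 WBC sample lay between 7.57% on chr14 (95% Wilson confidence interval 5.65 to 10.1, counting error only) and 12.0% on chr9 (9.66 to 14.8). The nearest other region lay at a median of 1318 bp, against 1246 bp for mismatched pairs and 1309 bp for all regions. It was within 1 kb for 39.9% of own-pair regions, 41.4% of mismatched regions, and 39.65% of all regions.

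Clusters were few and small. Within 100 kb, 11 pairs of neighbouring own-pair regions belonged to the same animal, where the animals' shares of all such regions gave 6.16, a ratio of 1.79 (exact Poisson interval 0.892 to 3.20, counting error only). Same-pair neighbours of mismatched pairs had a ratio of 1.07. No 2 own-pair regions of one animal lay within 10 kb, and within 1 Mb the ratio was 1.05 (64 pairs). The 11 clusters had 2 regions each and came from 6 animals, 4 of them from PF 15. Without PF 15, C 14, and PAE 16, the ratio was 1.07. With both peaks at q under 0.001 it was 4.98, based on fewer regions.

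The tightest cluster spanned 25378 bp in PF 15, chr9:21082776-21108153, with heights of 11 fragments in the hypothalamus and 12 in WBC at one end and 11 and 8 at the other. Younger hypothalami held a peak at the first end in 8 cases and at the other in 7, with PF 1 and PAE 7 in both. The next, in PF 13, spanned 34750 bp (chr2:151555141-151589890), with 15 and 14 fragments and then 13 in both tissues, and no younger hypothalamus held both ends. The third, again in PF 15, spanned 37798 bp (chr1:238007020-238044817), with 22 and 21 fragments at one end and 15 and 13 at the other. In this region, 4 younger hypothalami held the first end and 8 the other, with PF 5, PF 7, and PF 10 in both.

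Own-pair regions recurred in younger hypothalami about as often as the regions of mismatched pairs did. Of the 1286 regions, 1128 (87.7%) overlapped a peak in at least 1 of the 36 younger samples, while 158 did not and 175 did so in a single sample. The corresponding share was 88.9% in mismatched pairs, 77.4% in all regions with exactly 2 samples, and 85.2% in all 512217 regions. The median number of younger hypothalami with a peak was 4, as in mismatched pairs, and 8 over all regions. A peak in 18 or more of the 36 was found for 12 own-pair regions (0.933%) and 144 mismatched regions (1.26%).

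Presence was similar at each younger age. A peak was found at P1 for 63.9% of own-pair regions, at P8 for 66.7%, and at P15 for 63.7%, against 64.1, 68.8, and 64.1% of mismatched regions. A peak at all 3 ages was found for 494 own-pair regions (38.4%) and 4467 mismatched regions (39.0%). Single younger samples held between 6.69% (PAE 11) and 18.4% (PF 2) of the own-pair regions, and the same sample held 18.7% of the mismatched regions in the latter case and 7.92% in the former.

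Averaged over animals, 87.6% of own-pair regions were present in a younger hypothalamus (SD = 4.84, n = 12), and 88.6% of the regions of a mismatched pair (SD = 3.65, n = 132). The difference of -0.987 percentage points gave p = 0.243 in an exact two-sided permutation of pairings within groups (adjusted p = 0.429). Values for own pairs ranged from 77.5% in PAE 13 to 95% in C 16. Without PF 15, C 14, and PAE 16, the means were 91.2 and 92.5% and the difference -1.21 points (exact permutation p = 0.0324). Leaving out C 16 or PAE 16 alone gave differences of -1.45 and -2.02 points (exact permutation p = 0.0460 and 0.0420). Leaving out PAE 13 or C 14 alone gave -0.205 and -0.369 points (exact permutation p = 0.860 and 0.350), and the replicate block gave -0.511 points, so the size of the difference and the call depended on which animals were included.

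For 6 of the P22 animals, 8 younger hypothalami had the same group, breeding cohort, and animal number in the study's tables, and are taken as littermates here. The question was whether regions held by both tissues of an animal were more often found in its littermates than in unrelated samples of the same age and group. The younger libraries differed in how many own-pair regions of all animals they held. PAE 5 held 16.7% of all own-pair regions, where the other P8 samples of the PAE group held 13.3 to 13.6%. C 5 held 14.8%, where the other P8 samples of the C group held 9.18 to 13.8%. C 11 held 13.5%, where the other P15 samples of the C group held 11.8 to 12.9%. PAE 9 (10.7%) and PF 9 (11.1%) lay within the range of the other samples of their age and group. The remaining littermates were the lowest of theirs. C 2 held 12.8%, where the other P1 samples of the C group held 13.4 to 15.4%. C 9 held 11.8%, where the other P15 samples of the C group held 12.2 to 13.5%. PAE 11 held 6.69%, where the other P15 samples of the PAE group held 7.47 to 14.85%. PAE 15 showed the highest littermate share at both P8 and P15, with 21.2% of its 132 regions in PAE 5 (P8) and 15.9% in PAE 9 (P15). The 3 other PAE samples of the same age held on average 11.1% and 9.85%. C 15 had 19.8% of its regions in C 5 (P8), where the other C samples of that age held 10.9 to 11.9%, but 11.9% in C 9 (P15), where the others held 12.9 to 13.9%. Mismatched regions of both tissues were also more frequent in PAE 5 and C 5. Those of the hypothalamus of PAE 15 were at 14.1% in PAE 5 and 11.6% in the others, and those of its WBC sample at 17.6 and 12.9%. For C 15, the shares in C 5 and the others were 15.0 and 12.0% for the hypothalamus and 15.1 and 11.3% for WBC. The same held for PF 9, at 12.2 and 10.5% for the hypothalamus of PF 15 and 13.2 and 12.7% for its WBC sample. For the other littermates with a higher own-pair share, mismatched regions were not more frequent in both tissues. Mismatched regions of C 16 were at 11.2% in both C 11 and the others for the hypothalamus, and at 9.54 and 12.9% for WBC. Those of PAE 15 were at 11.0% in PAE 9 and 9.88% in the others for the hypothalamus, and at 10.2 and 10.6% for WBC. In C 2 and C 9, 1 tissue was higher and the other lower, and in PAE 11 both were lower. C 16 had 14.0% in C 11 against a mean of 11.3%, and PF 15 had 13.3% in PF 9 against 11.9%. In C 14 and PAE 16, the littermate held fewer, 12.3% in C 2 against 14.8% and 5.41% in PAE 11 against 8.71%. The littermate share was thus above that of all 3 samples of its age and group in PAE 15 at both ages, in C 15 at P8, and in C 16.

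Over the 6 animals, the share in littermates was 1.68 percentage points higher than in the other samples of the same age and group, and was higher in 4 animals. An exact one-sided permutation of the younger samples within age and group, with 36864 arrangements, gave p = 0.120 (adjusted p = 0.360). The 2 animals with a lower share, C 14 and PAE 16, were those with unusual chrX and chrY peak numbers. Their littermates, C 2 and PAE 11, also held the smallest share of all own-pair regions in their age and group. The source of the lower shares was not tested. Without PF 15, C 14, and PAE 16, the 3 remaining animals differed by 7.61 (PAE 15), 6.31 (C 15), and 2.99 (C 16) points, with a mean of 5.63 (exact permutation p = 0.00391, smallest possible p = 0.00130). This set was chosen after seeing the data. When single animals were left out, the difference was lowest without PAE 15, at 0.838 points (exact permutation p = 0.3135), followed by PF 15, at 1.08 points (exact permutation p = 0.269), and highest without C 14, at 2.66 points (exact permutation p = 0.0303). With the mean of each animal and of each younger sample subtracted, the difference over all 6 animals was 1.78 points (exact permutation p = 0.0484). At P1 and P8, 2 of the 3 other samples of an age and group came from another breeding cohort. Within cohorts, the difference over the 6 animals was 0.996 points (exact permutation p = 0.323), and over the 3 animals above it was 5.78 points (exact permutation p = 0.0156). With both peaks at q under 0.001, the 6 animals differed by 0.540 points (exact permutation p = 0.376), so the call depended on the animals and the settings.

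Regions limited to the family were rare. Only 5 own-pair regions had a peak in every littermate of the animal and in no other younger hypothalamus, 3 of C 16 and 2 of PF 15. With other samples of the same age and group in place of the littermate, C 16 had between 0 and 1 such regions and PF 15 between 0 and 2. The other 4 animals had 0 in their littermates and up to 1 (C 14 and PAE 15), 2 (PAE 16), or 0 (C 15) with the substitutes. The highest of C 16, chr13:100023192-100023718, had 11 fragments in the hypothalamus, 13 in WBC, and 14 in the hypothalamus of C 11 at P15. That of PF 15, chr17:29573837-29574371, had 15 and 16 fragments, and 15 in PF 9 at P15.

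Regions just outside the selection rule also held the tissues of one animal more often than mismatched pairings gave. A peak in 1 sample only was found for 113293 regions, and a peak in exactly 3 samples for 38774. Of the 14103 regions of 3 samples that included both tissues, 2668 held both tissues of one animal, where the 729 pairings that gave every animal the WBC sample of another of its group had a mean of 2293 (range 2183 to 2399). The heights of the animal's own peaks had a median of 12 fragments in both tissues, as inside the rule. The same set of 2 animals in both tissues was found for 95 regions, where mismatched pairings had a mean of 60.8 (range 38 to 87), and the same 3 animals for 16 regions, where they had a mean of 9.63 (range 1 to 23). At the peak threshold itself, the lowest -log10 q-value of a member was 1.30, and 325 members (25.3%) had a weaker peak at 2 or below.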

How the data were processed

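The authors aligned reads to Rn6 and called peaks per sample with MACS2 2.1.0.20140616 (q-value cutoff 0.05, no input control, subpeak summits). The signal that the authors deposited for each summit is a height in overlapping fragments, not scaled to library size. Fold enrichment, also deposited, is a ratio of height to local background. The authors' -log10 p-value and -log10 q-value come from the same run. From these lists, summits of one peak were joined and peaks merged (Python 3.11.15, pandas 2.3.3, scipy 1.17.1, numpy 2.4.6). Expected numbers came from a quasi-independence fit to the mismatched pairs. Counting and tests were tested on simulated peaks. Samples were grouped by their labels, and litters, cohorts, pools, and extraction rounds came from the study's supplementary tables. The youngest samples are titled P0 and labelled 1 day, and are called P1. Named regions were the tallest per animal, the 3 clusters first by number of regions and then by shorter span, and the tallest limited to littermates. The members and lists were chosen with earlier results of these data known. Alternatives changed overlap, q-value, isolation, chromosomes, pairing, and the animals included. Same-numbered P22 samples of different groups did not deviate together (highest r = 0.0134 in the hypothalamus and 0.00449 in WBC). They did share a breeding cohort, as 13 and 14 were of Dev-3 and 15 and 16 of Dev-4 in every group. The replicate block, which compared samples of the same number, thus also held cohort fixed.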

Additional observations from a re-analysis of the deposited data

Results flagged for a closer look

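The ratio of own to expected number in C 15, at 1.60, was far above the other C animals, which lay between 1.26 and 1.31. The median WBC height of own-pair regions was 11 fragments in C 15 and 12 in the other C animals, a step of 1 fragment. Of 27 groups of 4 animals examined for a value far from the others, 2 had one. The number that chance would give was not measured.

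Peaks on chrY were outside the comparisons. At P22, the WBC sample of C 14 had 1631, where the highest of the other C WBC samples had 146. The P22 hypothalamus of PAE 16 had 201, where the highest C hypothalamus of that age had 88. On chrX, own pairs had a mean of 3.58 regions and mismatched pairs of 2.78, a ratio of 1.29, close to that of chr1 to chr20. The sources of these differences were not tested.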

How the results depend on the processing

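The excess of own over mismatched pairs kept its direction and its side of the threshold in all 27 alternatives, with ratios from 1.20 to 3.22 (1.20 to 1.29 when each animal was left out), and p did not exceed 0.0260. With the replicate block, the ratio was 1.27 (exact permutation p = 0.00154), and the block changed no call, although the blocked group comparisons, with 4 replicate numbers, were too small to pass the threshold. The differences in height moved by less than their SD over animals in all 19 alternatives.

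Group differences in the excess changed sign under some settings. PAE vs. C was 0.0134 (exact permutation p = 0.971) without other peaks within 1 kb, 0.0790 (p = 0.629) relative to the mean of mismatched pairs of the same samples, -0.384 (p = 0.0857) with both peaks at q under 0.001, and from -0.240 to 0.0257 without single animals. PAE vs. PF was -0.0251 (exact permutation p = 0.886) with peaks at q under 0.001 in all samples, -0.0270 without PF 15, and from -0.0290 to 0.255 without single animals. PF vs. C was -0.53 with both peaks at q under 0.001 (exact permutation p = 0.0286), and from -0.34 to -0.02 without single animals.

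Presence in younger hypothalami differed by -1.21 points without PF 15, C 14, and PAE 16, by -2.21 with both peaks at q under 0.001 (exact permutation p = 0.0611), by -0.511 with the replicate block, and by -2.02 to -0.205 without single animals. Presence in littermates was 5.63 points without these 3 (5.78 within breeding cohorts), 1.78 (exact permutation p = 0.0484) with animal and sample means subtracted, and from 0.838 to 2.66 without single animals. It was 0.996 points within breeding cohorts (exact permutation p = 0.323), 0.540 with both peaks at q under 0.001 (exact permutation p = 0.376), and 0.137 with younger peaks at q under 0.001 (exact permutation p = 0.464). The clustering ratio was 4.98 with both peaks at q under 0.001 and 0 within 10 kb, and 1.31 to 1.88 without single animals. The causes were not tested.

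With 4 animals per group, only large group differences were detectable. The lists hold no value below the peak threshold, so a region private to one animal is private among called peaks only. PF 16, with the fewest WBC fragments, had the fewest own-pair regions. Litters were compared in 6 animals only.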
